A study of Mus musculus with 2 samples.

Results

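The 32 genes described here encode kinases, sensors and repair enzymes of the DNA damage response. They were found by matching the gene name of each array probe to a fixed list of symbols or to an older synonym, and all 32 were among the 19349 genes named on the array. Expression was measured in regenerating mouse liver on 2 arrays, each hybridised with RNA of both genotypes. The groups were Wip1 knockout (KO) liver at 36 h, wild-type (WT) liver at 36 h, KO liver at 24 h and WT liver at 24 h after partial hepatectomy, in which part of the organ is cut away and the remainder regrows. All mice were 3 months old, and every group had been operated on, so no unoperated liver was compared. KO RNA carried the red dye Cy5 and WT RNA the green dye Cy3 on both arrays. The labels do not give the number or sex of the mice behind a channel, nor how the knockout was made. With 1 array per time and no exchange of dyes, no test was possible, and the spread between animals is unknown.

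Wip1 is the product of the gene Ppm1d. It is a nuclear phosphatase that p53 induces and that removes phosphate groups placed by the kinases ATM and ATR. Its known substrates include ATM itself, the checkpoint kinases, p53, the histone H2AX and the uracil glycosylase UNG. In the damage response, sensor complexes recognise broken or stalled DNA and activate ATM, ATR and DNA-PK, mediators hold the signal at the lesion, and the checkpoint kinases and p53 stop the cell cycle while repair proceeds. Hepatocytes leave quiescence and copy their DNA after partial hepatectomy, and many repair genes are known to be transcribed most strongly in cells that are replicating DNA. Wip1 acts on phosphorylated proteins, and the arrays measured transcripts.

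Ppm1d was below background in all 4 channels on its only probe, so the arrays gave no ratio for the targeted gene, and the assignment of channels to genotypes rests on the labels. A channel was taken as above background when its median foreground lay over 2 background SDs above the local background. Between 31.1% and 41.4% of 31920 gene probes passed. Repeated spots of 4 control genes, 48 spots each, had SDs of 0.154 log2 units in KO over WT at 36 h and 0.115 at 24 h. Different probes of the same gene differed with SDs of 0.260 and 0.259. These spreads lie within arrays and hold no variation between animals. All 7 hepatocyte markers, such as Alb and Ttr, were above background in every channel. The livers also differed in sex-biased genes. At 36 h the 5 measured male-biased liver genes were higher in KO liver (median log2 ratio 4.05) and the 6 female-biased genes lower (median -4.43). Of 5 Y-linked genes, Ddx3y had log2 ratios of 1.40 at 36 h and 0.09 at 24 h, and Kdm5d 0.80 at 36 h. Eif2s3y had a signal of 2045 in KO liver at 36 h and was below background in every other channel. Uty was below background in all 4 channels. Usp9y was so in KO liver at 36 h and had a log2 ratio of 0.04 at 24 h. At 24 h, 4 of 5 measured female-biased genes were at least 2-fold lower in KO liver and 1 at least 2-fold higher (median -2.05), and the 2 measured male-biased genes had a median of -0.11. Between the times, as 36 h over 24 h, the female-biased genes had medians of -1.19 in KO liver (5 genes) and 1.01 in WT liver (6 genes). The male-biased genes had medians of 3.48 in KO liver (2 genes) and -0.18 in WT liver (3 genes). Ddx3y had log2 differences of 1.98 in KO and 0.66 in WT liver. The part of sex-biased and Y-linked genes in the members' values was not tested.

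None of the measured members differed by at least 2-fold between KO and WT liver at either time. Brca2 and Ung in KO liver, and Chek1 and Topbp1 in WT liver, were at least 2-fold lower at 36 h than at 24 h. Chek1, Topbp1 and Rad54l were below background in KO liver at 36 h, so a fall there was not counted. In KO over WT at 36 h, 0 of 16 measured members were called at least 2-fold apart, against 4.71% of all 7427 genes measured. In KO over WT at 24 h, 0 of 24 were called, against 2.27% of 7984 genes. In 36 h over 24 h within KO liver, 2 of 15 fell (Brca2 and Ung) and 0 rose, against 3.61% of 7083 genes lower and 2.53% higher. In 36 h over 24 h within WT liver, 2 of 23 fell (Chek1 and Topbp1) and 0 rose, against 1.56% of 8549 genes lower and 1.38% higher. Each channel enters 2 of these comparisons, so they share data. In whole liver, fewer cells of a type and less RNA per cell cannot be told apart.

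The members' medians were near 0 in every comparison. The median log2 ratio of KO over WT was -0.16 at 36 h, against 0.03 over all genes, and 0.03 at 24 h, against 0.01. The median of 36 h over 24 h was -0.16 in KO liver, against 0.05 over all genes, and -0.09 in WT liver, against 0.03. Members below 0 numbered 11 of 16 in KO over WT at 36 h (46.0% of all genes) and 10 of 24 at 24 h (48.2%). For 36 h over 24 h they numbered 11 of 15 in KO liver (44.9% of all genes) and 17 of 23 in WT liver (46.1%). A member counted as measured only when both channels of a comparison were above background. Of the 32 members, 16 were above background in KO liver and 23 in WT liver at 36 h, and 24 in KO liver and 29 in WT liver at 24 h. There were 15 above background in all 4 channels, 14 in some and 3 in none. The counts therefore leave out members that were dim in 1 group. No member was saturated.

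**Figure D1:**
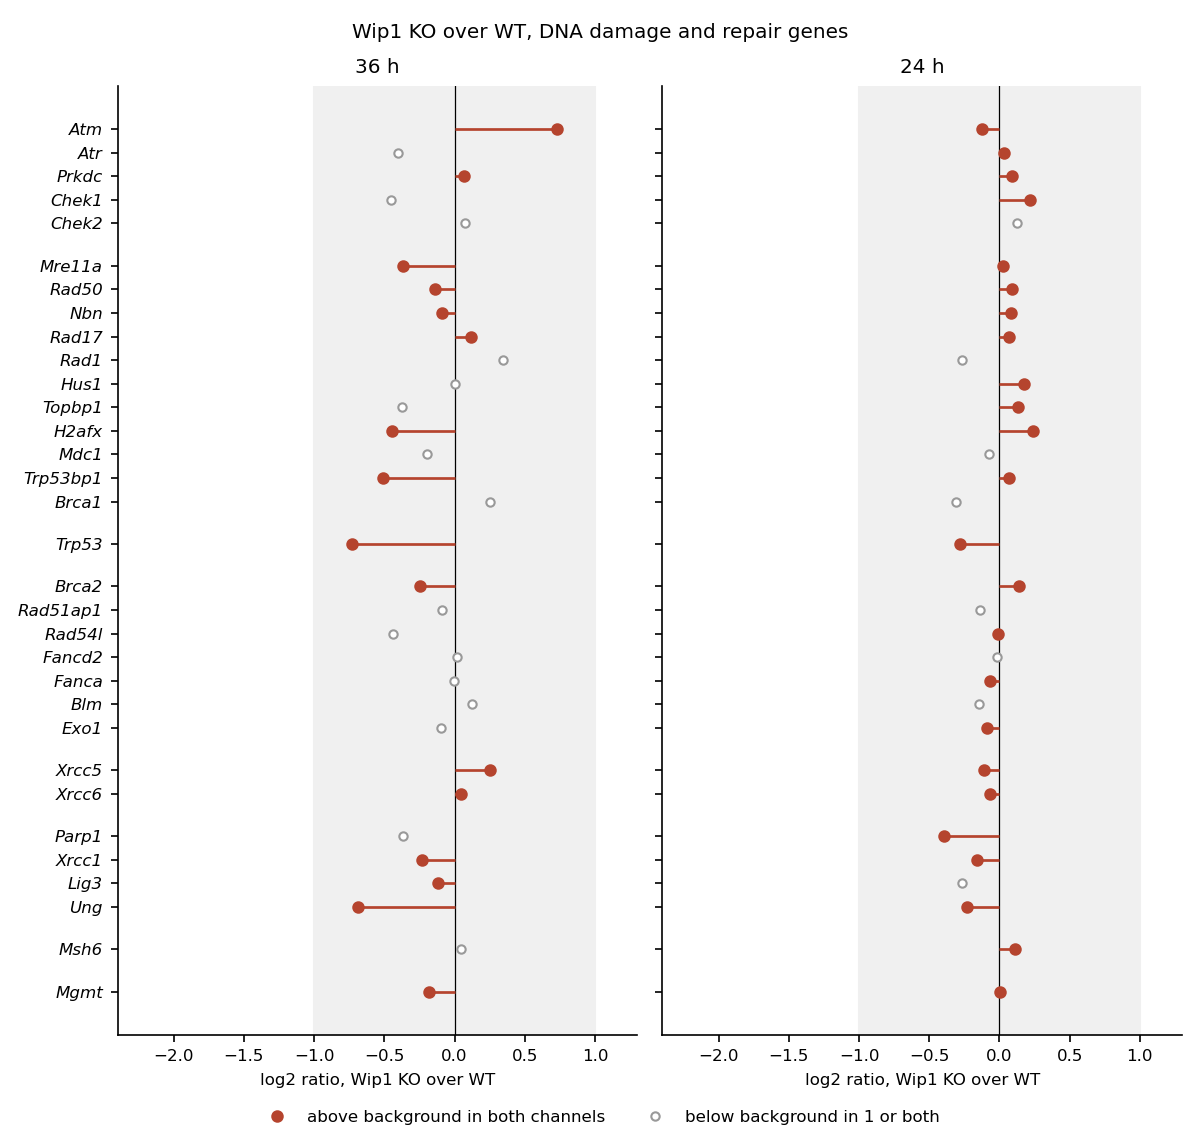
Log2 ratio of Wip1 KO over WT for each of the 32 members at 36 h (left) and 24 h (right), grouped by role. Filled points were above background in both channels, open points were not, and the grey band spans less than 2-fold. All filled points lie inside the band, with Atm (0.73), Ung (-0.69) and Trp53 (-0.73) farthest out at 36 h.

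**Figure D2:**
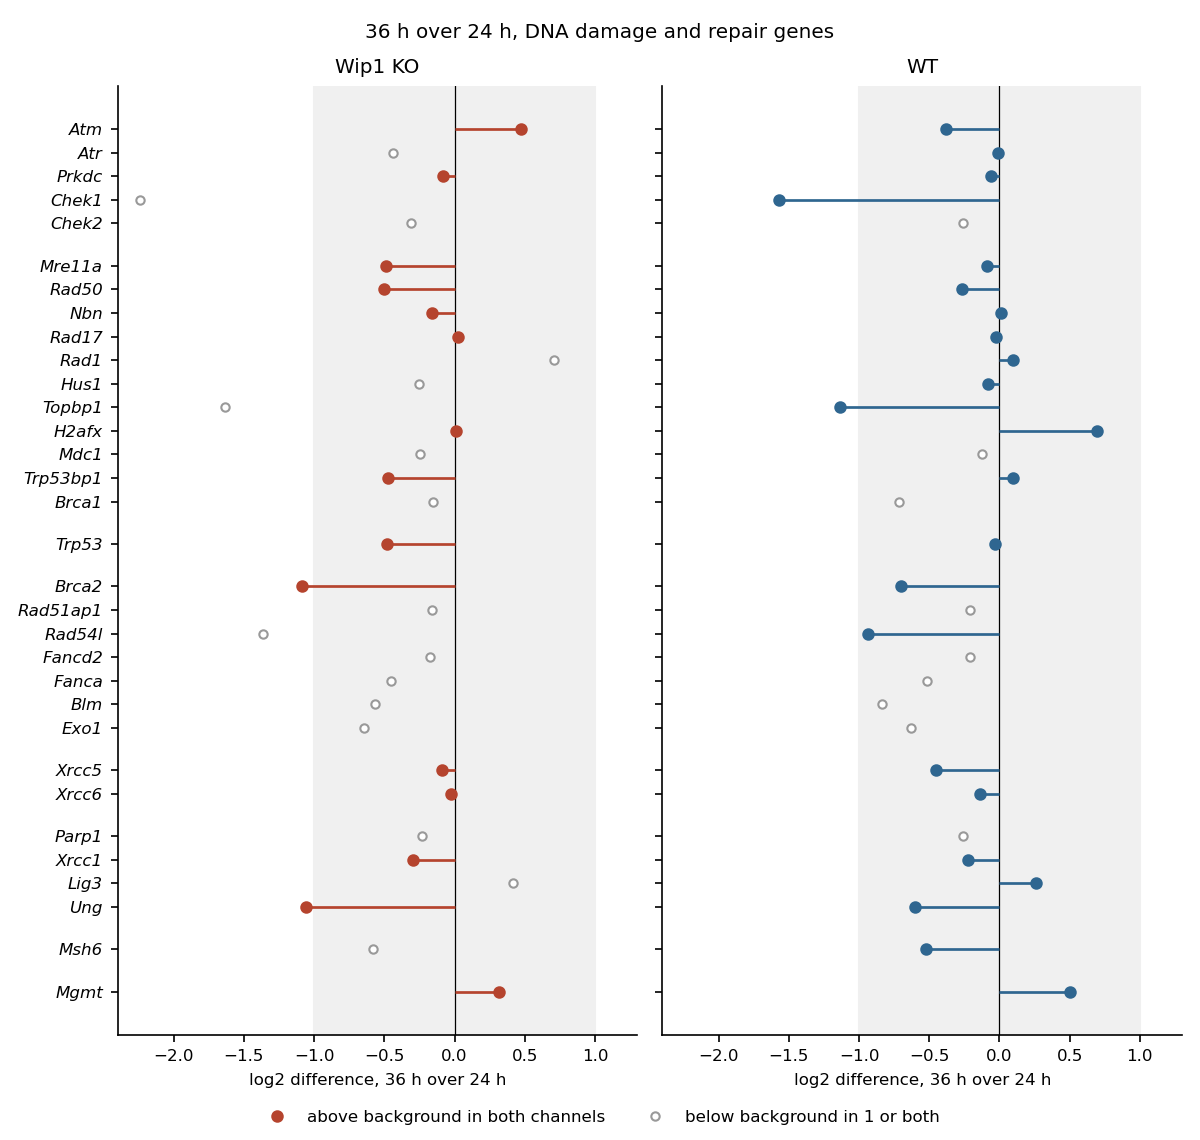
Log2 difference of 36 h over 24 h for each member in Wip1 KO liver (left) and WT liver (right), drawn in the same way. Brca2 (-1.09) and Ung (-1.06) in KO liver, and Chek1 (-1.57) and Topbp1 (-1.13) in WT liver, are the filled points outside the band.

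Among the kinases that start the signal, Atm had a higher level in KO liver at 36 h, and Prkdc and Atr differed less. Atm, the kinase that answers double-strand breaks and a direct Wip1 substrate, had normalised signals of 345 in KO and 208 in WT liver at 36 h, and 248 in KO and 271 in WT liver at 24 h. Its log2 ratio of KO over WT was 0.73 at 36 h and -0.13 at 24 h. KO liver at 36 h was the brightest of the 4 channels for this probe and WT liver at 36 h the dimmest. By a looser criterion of 1.5-fold, Atm was the 1 member higher in KO liver at 36 h, where 8.72% of all genes were higher. With plain background subtraction its log2 ratio at 36 h was 1.03 and in the authors' deposited table of ratios 1.21, so 2 of the settings tried put it past 2-fold. The lowest ratio at 36 h under any setting that kept Atm was 0.70. Atm was not among the 13 members left in all 4 channels when spots needed a quality flag of 100. Prkdc, the catalytic subunit of DNA-PK, gave 371 in KO and 355 in WT liver at 36 h, and 394 in KO and 370 in WT liver at 24 h. Its log2 ratios were 0.06 at 36 h and 0.09 at 24 h, within 1 SD of repeated spots. With mean in place of median foreground its ratio at 36 h was -0.34, on the other side of 0. Atr, the kinase that answers stalled replication forks, was below background in KO liver at 36 h (signal 173) and above it in WT liver at 36 h (229), KO liver at 24 h (235) and WT liver at 24 h (230). In WT liver the log2 difference between times was -0.01, and in KO liver it was at least 1.36-fold lower at 36 h. Such bounds set the bright signal against the dim probe's own signal or the lowest signal above background in that channel, whichever is higher. They are given as at least throughout. Where the dim probe's own signal is the higher, as for Atr here and for many bounds below, the bound is the plain ratio of both signals. It is then an estimate and not a strict minimum.

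Chek1 showed the widest change of any member between times. This kinase carries the ATR signal, restrains entry into mitosis while DNA is copied, and is itself a Wip1 substrate. It had signals of 151 in KO and 206 in WT liver at 36 h, and 711 in KO and 611 in WT liver at 24 h. Both 36 h channels were far below both 24 h channels. In WT liver Chek1 fell 2.96-fold (log2 -1.57). In KO liver it was below background at 36 h, and its bound, here the plain ratio of both signals, was 4.72-fold lower than at 24 h. KO over WT had a log2 ratio of 0.22 at 24 h, and at 36 h KO liver was at least 1.37-fold lower than WT liver. Chek2, the kinase downstream of ATM, was above background in WT liver at 24 h alone (signal 122, at least 1.09-fold above WT liver at 36 h), and its ratios are not read.

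In WT liver 1 of 9 measured sensors and mediators fell between the times (Topbp1), and 4 of the 9 were above 0 in 36 h over 24 h and 5 below. Over all genes measured in that comparison, 1.56% fell and 46.1% were below 0. Topbp1, the scaffold that switches ATR on at stalled forks, had signals of 153 in KO and 198 in WT liver at 36 h, and 475 in KO and 434 in WT liver at 24 h. It fell 2.19-fold in WT liver (log2 -1.13). In KO liver, where it was below background at 36 h, its bound, a plain ratio of both signals, was 3.11-fold lower. The loader Rad17 and the clamp subunits Rad1 and Hus1, which work with Topbp1 in this step, did not show such values. Rad17 was between 366 and 398 in all 4 channels. In WT liver the log2 difference of 36 h over 24 h was 0.10 for Rad1 and -0.08 for Hus1. Hus1 had a log2 ratio of 0.18 in KO over WT at 24 h and was at least 1.19-fold lower at 36 h than at 24 h in KO liver. Rad1 was below background in KO liver at both times.

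H2afx, which encodes the histone variant H2AX that is phosphorylated around breaks and dephosphorylated by Wip1, ran in another direction. Its signals were 836 in KO and 1135 in WT liver at 36 h, and 829 in KO and 702 in WT liver at 24 h. WT liver at 36 h was the highest channel, and both KO channels were alike. The log2 difference of 36 h over 24 h was 0.01 in KO and 0.69 in WT liver, and H2afx was the 1 member at least 1.5-fold higher at 36 h in WT liver, where 5.36% of all genes were. KO over WT was -0.44 at 36 h and 0.24 at 24 h.

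The break sensor MRN is made of Mre11a, Rad50 and Nbn, and no subunit reached 1.5-fold in any comparison. Nbn, the subunit that recruits ATM, had signals of 1267 in KO and 1345 in WT liver at 36 h, and 1413 in KO and 1333 in WT liver at 24 h. The nuclease subunit Mre11a was 350 in KO and 452 in WT liver at 36 h, and 490 in KO and 482 in WT liver at 24 h, so that KO liver at 36 h was the lowest channel. Rad50, the ATPase that bridges DNA ends, was 218 in KO and 240 in WT liver at 36 h, and 308 in KO and 289 in WT liver at 24 h. In KO liver Mre11a and Rad50 had log2 differences of 36 h over 24 h of -0.49 and -0.50. In WT liver these were -0.09 and -0.27. The SDs of repeated control spots in these comparisons were 0.150 in KO and 0.118 in WT liver.

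Trp53bp1, whose protein 53BP1 steers breaks to end joining, showed the same shape as Mre11a with 470 in KO and 668 in WT liver at 36 h, and 654 in KO and 624 in WT liver at 24 h. Its KO over WT log2 ratio was -0.51 at 36 h and 0.07 at 24 h. The value comes from the brightest of 4 probes, and none of the other three was above background in both channels of any comparison. The mediator Mdc1 was below background in all 4 channels. Brca1, the ubiquitin ligase that favours recombination, was above background in WT liver at 24 h alone (signal 191), at least 1.24-fold above KO liver at 24 h and at least 1.64-fold above WT liver at 36 h.

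Trp53 encodes p53, the transcription factor that Wip1 restrains. Its signals were 193 in KO and 321 in WT liver at 36 h, and 270 in KO and 329 in WT liver at 24 h. KO liver was below WT liver at both times, with log2 ratios of -0.73 at 36 h and -0.28 at 24 h. WT liver hardly moved between times (log2 -0.03) and KO liver was lower at 36 h (-0.48). Trp53 and Ung were the 2 members at least 1.5-fold lower in KO liver at 36 h, where 5.78% of all genes were. At 24 h no member reached 1.5-fold, against 6.69% of all genes higher and 4.23% lower. With plain background subtraction Trp53 had a log2 ratio of -1.06 at 36 h and so passed 2-fold.

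**Figure D3:**
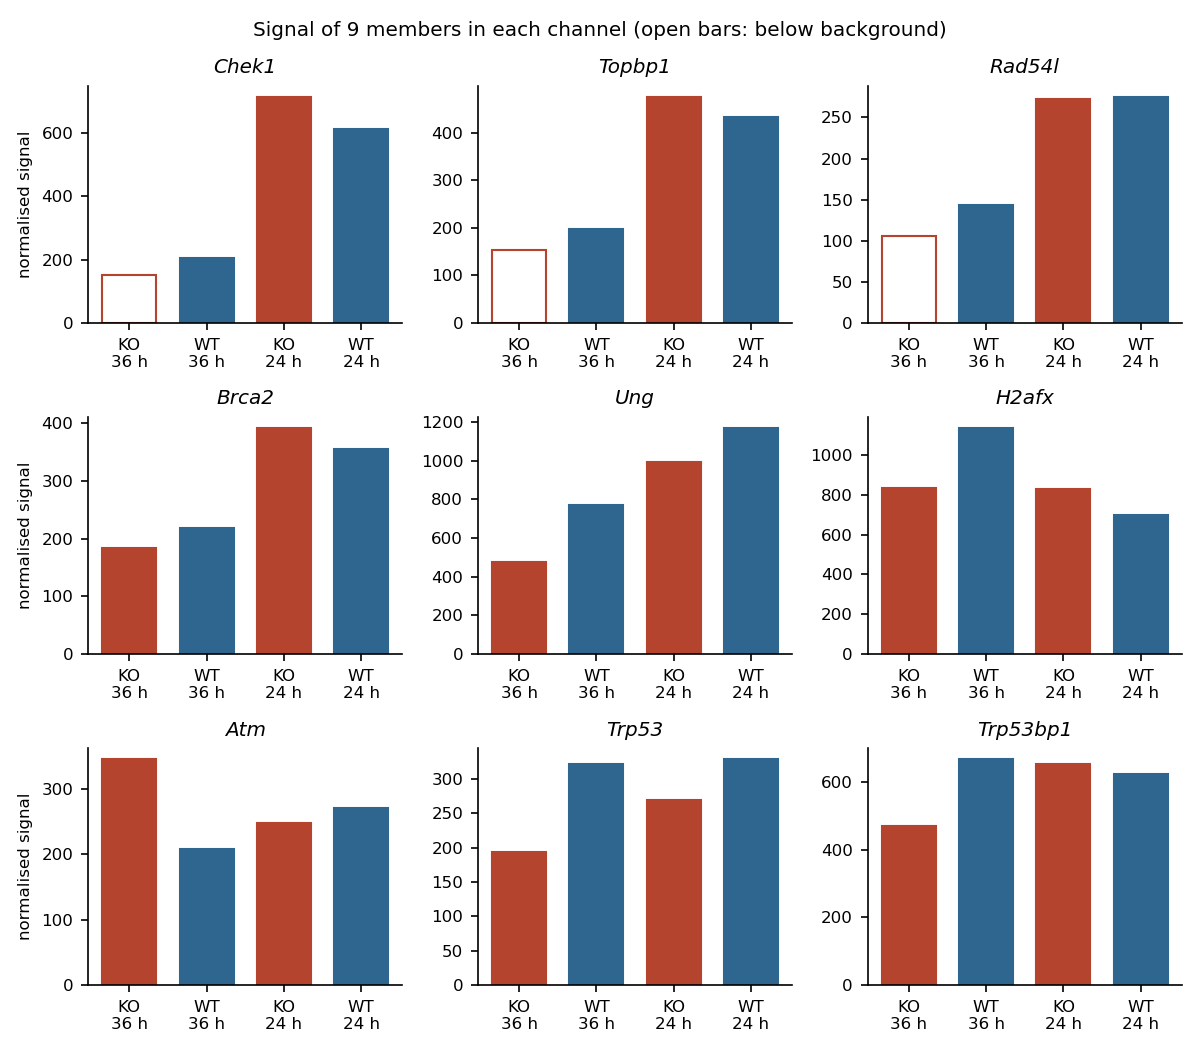
Normalised signal (arbitrary units, axis from 0, scaled for each gene) of 9 members in KO and WT liver at 36 h and at 24 h. Open bars were below background. Chek1, Topbp1, Rad54l and Brca2 have both 36 h bars below both 24 h bars, H2afx is highest in WT liver at 36 h, and Atm is highest in KO liver at 36 h.

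Of the 7 members of homologous recombination and crosslink repair, 1 was measured at both times in KO liver (Brca2) and 2 in WT liver (Brca2 and Rad54l). These values were below 0 in 36 h over 24 h, as were 44.9% of all genes in KO and 46.1% in WT liver. Brca2, a mediator of strand exchange at resected ends, had signals of 184 in KO and 218 in WT liver at 36 h, and 391 in KO and 355 in WT liver at 24 h. It fell 2.13-fold in KO liver (log2 -1.09), and in WT liver the log2 difference was -0.70. Rad54l, a motor protein that helps the broken strand invade its partner, had signals of 106 in KO and 143 in WT liver at 36 h, and 272 in KO and 274 in WT liver at 24 h. In WT liver its log2 difference was -0.94, just short of 2-fold, and in KO liver it was at least 2.43-fold lower. The WT value depended on the background correction. It was -1.81 with plain background subtraction and -1.77 with no background correction, both past 2-fold. Its dimmer second probe was above background in WT liver at 24 h alone.

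The other recombination genes were close to background. Exo1, a nuclease that resects DNA ends, was above background in both genotypes at 24 h (251 in KO, 267 in WT liver) and in neither at 36 h, at least 1.56-fold lower in KO and 1.55-fold lower in WT liver. Fanca, a subunit of the Fanconi anaemia core complex, behaved likewise, at least 1.37-fold lower in KO and 1.43-fold lower in WT liver. The helicase Blm was above background in WT liver at 24 h alone, at least 1.62-fold above WT liver at 36 h. Rad51ap1, an accessory factor of strand exchange, and Fancd2, the central protein of the Fanconi pathway, were below background in all 4 channels. KO over WT at 24 h was small for all those measured, from -0.09 (Exo1) to 0.14 (Brca2). At 36 h Brca2 had a log2 ratio of -0.24 and Rad54l was at least 1.28-fold lower in KO liver.

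The end-joining genes Xrcc5 and Xrcc6, which encode the Ku80 and Ku70 subunits of the ring that grips broken ends, did not reach 1.5-fold in any of the 4 comparisons. Xrcc6 gave 995 in KO and 965 in WT liver at 36 h, and 1014 in KO and 1064 in WT liver at 24 h. Xrcc5 gave 558 in KO and 468 in WT liver at 36 h, and 594 in KO and 640 in WT liver at 24 h. The log2 ratio of KO over WT was 0.04 at 36 h and -0.07 at 24 h for Xrcc6, and 0.25 at 36 h and -0.11 at 24 h for Xrcc5. The log2 difference of 36 h over 24 h was -0.03 in KO and -0.14 in WT liver for Xrcc6, and -0.09 in KO and -0.45 in WT liver for Xrcc5.

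Base excision and strand break repair held the second measured member that was called lower in KO liver at 36 h. Ung, the uracil glycosylase that removes uracil from DNA, had signals of 478 in KO and 770 in WT liver at 36 h, and 996 in KO and 1169 in WT liver at 24 h. The channels ran in one order, with both 36 h channels below both 24 h channels and KO below WT at each time. Ung fell 2.08-fold in KO liver (log2 -1.06) and had a log2 difference of -0.60 in WT liver. KO over WT was -0.69 at 36 h and -0.23 at 24 h. With each channel scaled to its median, the log2 difference in KO liver was -0.98 and the call was lost. A probe named Ung2, a synonym shared by Ung and Ccno, was left out and was below background in all 4 channels.

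Xrcc1, the scaffold of single-strand break repair, had signals of 371 in KO and 435 in WT liver at 36 h, and 455 in KO and 508 in WT liver at 24 h. Its KO over WT log2 ratios were -0.23 at 36 h and -0.16 at 24 h. Lig3, its ligase partner, was 231 in KO and 250 in WT liver at 36 h (log2 ratio -0.11) and above background in WT liver alone at 24 h, with a log2 difference between times of 0.26 in WT liver. Parp1, which senses strand breaks, gave a log2 ratio of -0.39 at 24 h, the lowest of any member at that time, from signals of 507 in KO and 665 in WT liver. At 36 h its spot did not pass the background criterion in either channel, with signals of 432 in KO and 556 in WT liver. Its bounds, again plain ratios of both signals, were 1.17-fold lower in KO and 1.20-fold lower in WT liver at 36 h than at 24 h.

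Msh6, a subunit of the complex that recognises mismatched bases, had signals of 251 in KO (below background) and 242 in WT liver at 36 h, and 376 in KO and 348 in WT liver at 24 h. Its log2 difference between times was -0.52 in WT liver. Mgmt, the protein that takes alkyl groups off guanine, went the other way, with 475 in KO and 539 in WT liver at 36 h, and 381 in KO and 380 in WT liver at 24 h. Both 36 h channels were above both 24 h channels, with log2 differences of 0.32 in KO and 0.50 in WT liver. Mgmt values come from the brighter of 2 probes, and the dimmer was below background throughout.

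At 1.5-fold, 2 of 15 members were lower at 36 h in KO liver and 0 higher, against 9.78% and 10.3% of all genes. In WT liver 5 of 23 were lower (Brca2, Chek1, Rad54l, Topbp1 and Ung), against 5.43% of all genes. In KO liver 3 of the same 5, Chek1, Rad54l and Topbp1, were below background at 36 h and enter by their bounds. With bounds taken into account, 5 members (Brca2, Chek1, Rad54l, Topbp1 and Ung) were at least 2-fold lower in KO liver at 36 h, and the members' median was -0.44. A member enters by a bound only through its bright channel, which fixes the direction of its value. That count and median therefore lean toward the brighter group, and no value over all genes was set beside them. With the 15 members above background in all 4 channels, 0 were called in WT liver, since both Chek1 and Topbp1 were dim in KO liver at 36 h.

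**Figure D4:**
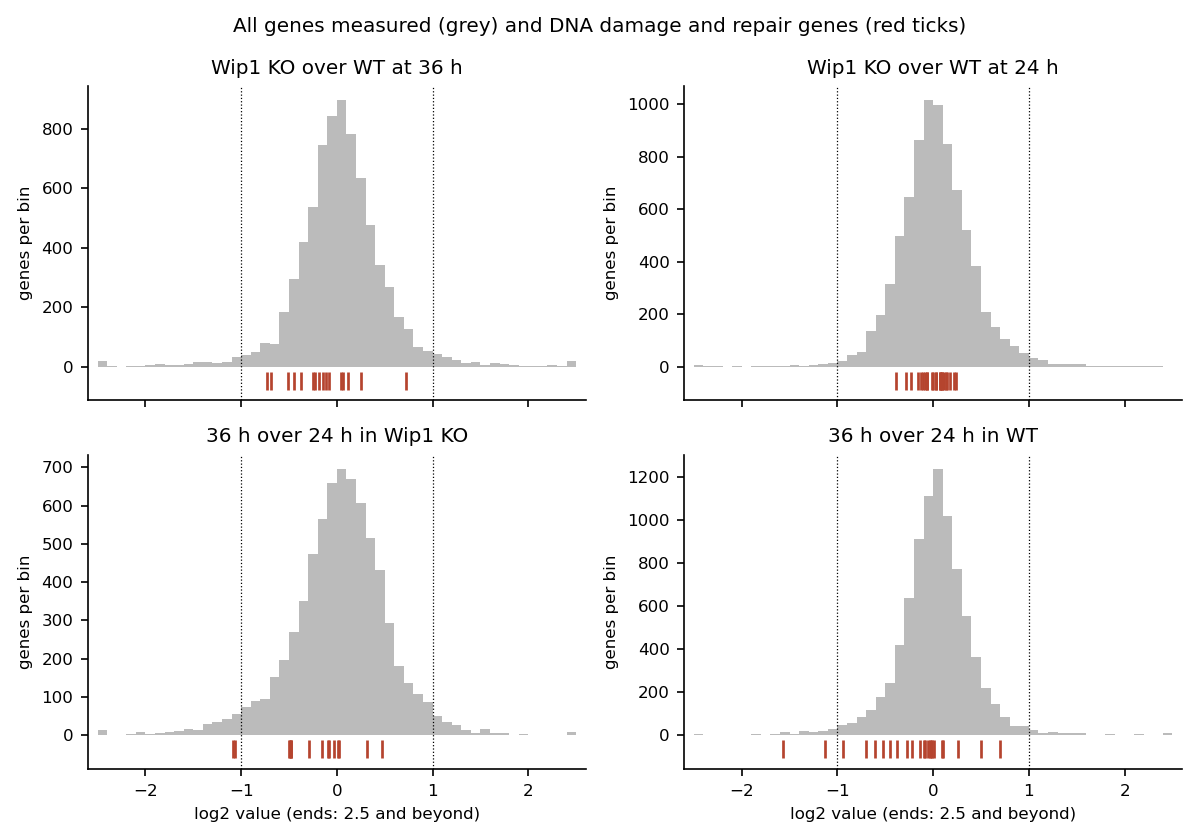
Distribution of log2 values of all genes measured (grey, genes per bin) in each of the 4 comparisons, with the measured members as red ticks and dotted lines at 2-fold. Members lie within the bulk of all genes in both comparisons of KO over WT, and the ticks left of the line are Brca2 and Ung in KO liver and Chek1 and Topbp1 in WT liver.

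Genes of the cell cycle also differed between the channels, in part in comparisons where no member was called. In KO liver 12 of 12 measured proliferation markers were at least 2-fold lower at 36 h (median log2 -1.55), among them the replication genes Pcna (-1.06), Mcm3 (-1.57), Mcm5 (-1.75) and Mcm6 (-1.55). In WT liver the same list was mixed, with 4 of 15 at least 2-fold higher and 3 lower (median 0.60). The 3 lower ones were the replication helicase subunits Mcm3 (-1.19), Mcm5 (-1.37) and Mcm6 (-1.51), and the mitotic genes Ccnb2 (2.68) and Cdk1 (1.03) were among the 4 higher. The summed signal of the list was 12773 in KO and 26382 in WT liver at 36 h, and 31952 in KO and 25733 in WT liver at 24 h. KO over WT was below 0 for 12 of 12 at 36 h (median -1.03) and had a median of 0.35 over 15 at 24 h. At least 2-fold apart were 7 of 12 at 36 h, all lower, and 3 of 15 at 24 h, all higher. No member was called at either time. One marker, Plk1, was below background in all 4 channels. The part of proliferation in the members' values was not tested.

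Markers of other cells also differed between the livers. Stellate and matrix markers had a median KO over WT log2 ratio of -0.46 at 36 h (0 of 5 above 0) and 1.56 at 24 h (5 of 5 above 0), with summed signals of 3187 in KO and 4710 in WT liver at 36 h, and 11721 in KO and 4037 in WT liver at 24 h. Bile duct markers had medians of -0.51 at 36 h (4 genes) and 0.90 at 24 h (6 genes). The 7 Kupffer cell and macrophage markers had medians of 0.25 at 36 h and -0.49 at 24 h, and hepatocyte markers 1.13 at 36 h and 0.44 at 24 h. The 7 endothelial markers had medians of 0.41 at 36 h and 0.03 at 24 h. In 36 h over 24 h within KO liver, 4 of 5 stellate and matrix markers (median -1.72) and 3 of 4 bile duct markers (median -1.47) were at least 2-fold lower, and 7 of 7 Kupffer cell and macrophage markers were above 0 (median 0.96). In WT liver the medians were 0.18 for stellate and matrix, 0.25 for bile duct and -0.09 for Kupffer cell and macrophage markers. Hepatocyte markers had medians of 0.25 in KO and -0.25 in WT liver, endothelial markers 0.26 in KO and -0.22 in WT liver, and the 5 measured erythroid markers -0.36 in KO and 0.67 in WT liver. Of 7 neutrophil markers, 3 were measured in each comparison, and they lay on both sides of 0 in each. Of 8 lymphocyte markers, 4 at 36 h and 5 at 24 h were below background in both channels. Their part in the members' values was not tested.

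The ratio of KO over WT changed sides between the times for 10 of the 15 members above background in all 4 channels, against 46.9% of 6995 such genes. Under median centring, which moves the 24 h ratios, it did so for 7 of 15. The ratio at 36 h minus that at 24 h was below 0 for 11 of 15 (46.8% of all genes), with a median of -0.19, against 0.03 over all genes. None differed by 2-fold or more, against 8.22% of all genes. The widest differences were 0.85 for Atm, -0.68 for H2afx and -0.58 for Trp53bp1, and 6.0% of all genes had a difference at least as high as that of Atm. Brca2 (-0.39) and Mre11a (-0.40) moved less, and Prkdc (-0.03), Rad17 (0.05) and Xrcc1 (-0.07) differed by less than the SD of repeated spots.

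Promoter sequence is shown for the 4 members that fell between the times, since genes of DNA replication and repair often carry sites of E2F, the transcription factor family that drives entry into S phase. RefSeq windows of 250 bases upstream of the annotated start on build GRCm38.p6 were found for 26 of the 32 members. The E2F letters TTCCCGC, or GCGGGAA on the other strand, are in capitals where they occur. The windows are chr9:36726659-36726908 on the minus strand for Chek1, chr9:103305077-103305326 on the plus strand for Topbp1, chr5:150522371-150522620 on the plus strand for Brca2 and chr5:114130185-114130434 on the plus strand for Ung, each written 5′ to 3′ toward the gene.
Chek1: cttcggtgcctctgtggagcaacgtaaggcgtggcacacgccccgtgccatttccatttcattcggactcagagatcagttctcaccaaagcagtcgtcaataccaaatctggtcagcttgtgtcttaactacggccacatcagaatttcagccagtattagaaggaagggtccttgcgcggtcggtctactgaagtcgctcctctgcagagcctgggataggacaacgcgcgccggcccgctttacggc
Topbp1: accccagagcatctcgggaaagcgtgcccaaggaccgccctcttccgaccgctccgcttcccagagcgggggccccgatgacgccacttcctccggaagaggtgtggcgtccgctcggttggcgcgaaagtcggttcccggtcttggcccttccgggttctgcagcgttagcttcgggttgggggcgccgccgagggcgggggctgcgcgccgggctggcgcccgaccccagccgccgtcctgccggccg
Brca2: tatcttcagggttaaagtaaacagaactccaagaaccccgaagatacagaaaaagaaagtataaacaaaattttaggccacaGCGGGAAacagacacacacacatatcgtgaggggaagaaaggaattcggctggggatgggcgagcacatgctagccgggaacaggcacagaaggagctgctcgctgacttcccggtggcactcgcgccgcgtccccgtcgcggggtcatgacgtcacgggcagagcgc
Ung: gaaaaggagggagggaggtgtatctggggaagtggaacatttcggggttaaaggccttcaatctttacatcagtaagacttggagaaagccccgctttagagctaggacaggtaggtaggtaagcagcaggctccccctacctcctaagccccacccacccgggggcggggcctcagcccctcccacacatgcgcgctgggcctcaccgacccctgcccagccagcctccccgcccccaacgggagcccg

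Of these windows Brca2 alone held the E2F letters searched, 168 bases before the start. Other forms of an E2F site were not searched, so their absence is not shown. Among the 26 members with a window, 4 held them (Brca2, Chek2, Mdc1 and Xrcc6), against 3.82% of 32851 RefSeq windows of the same length. Xrcc6 did not reach 1.5-fold in any comparison and Mdc1 was below background. The CHR letters TTTGAA or TTCAAA, found upstream of many genes of mitosis, were in 1 of 26 (Hus1), against 16.0% of all windows, and CCAAT or ATTGG in 13 of 26, against 33.8%. No searched motif is contained in another. A match describes the letters in the window and is neither a bound site nor a cause.

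A wider list of 161 further genes of repair and damage signalling placed the members in their pathways. Of these, 152 were on the array, 79 above background in all 4 channels and 31 in none. In KO over WT 0 of 81 measured were called at 36 h (median 0.04), against 4.71% of all genes. At 24 h 0 of 100 were called (median 0.01), against 2.27%. Ube2t, the ubiquitin-conjugating enzyme of the Fanconi pathway, was below background in KO liver at 36 h (signal 127, against 275 in WT liver). Its bound, a plain ratio of both signals, was 2.16-fold lower. In 36 h over 24 h, 9 of 83 fell and 0 rose in KO liver (median -0.09), against 3.61% of all genes lower and 2.53% higher. In WT liver 4 of 106 fell and 0 rose (median -0.14), against 1.56% lower and 1.38% higher.

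Some genes of the wider list that fell work where DNA is copied, and others of that kind did not fall. In the group of clamp, ATR and fork protection genes, 3 of 9 measured fell in KO liver and 0 of 14 in WT liver. The shares over all genes were 3.61% and 1.56%. Lig1, the ligase that seals Okazaki fragments, had signals of 962 in KO and 1046 in WT liver at 36 h, and 3547 in KO and 2901 in WT liver at 24 h, with log2 differences of -1.88 in KO and -1.47 in WT liver. It fell in both genotypes. In KO liver the flap nuclease Fen1 (-1.69), the clamp loader subunit Rfc4 (-1.42), the single-strand binding subunit Rpa2 (-1.34), the fork protection gene Timeless (-1.34), the dUTPase Dut (-1.27), Mlh3 of the mismatch repair group (-1.04) and the p53 target Trp53inp1 (-1.25) also fell. In WT liver these 7 lay between -0.96 (Timeless) and -0.34 (Mlh3). In WT liver Fancb of the Fanconi core complex (-1.24) and Msh3 (-1.08) fell. Fancb was below background in KO liver at 36 h, and its bound, a plain ratio of both signals, was 4.82-fold lower than at 24 h. Msh3 had -0.53 in KO liver. Among genes dim in 1 channel, the translesion genes Rad18 and Rev1 had bounds 2.69-fold and 2.28-fold lower in KO liver at 36 h. Rbbp8, whose protein CtIP starts end resection, had a bound 2.11-fold lower. These bounds too are plain ratios of both signals and not strict minima.

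By pathway, the group of clamp, ATR and fork protection genes had the lowest medians of 36 h over 24 h among groups with more than 5 measured genes, -0.74 in KO liver (8 of 9 below 0) and -0.45 in WT liver (9 of 14 below 0). Of all genes measured, 44.9% were below 0 in KO and 46.1% in WT liver. Mismatch repair had medians of -1.04 over 3 genes in KO and -0.34 over 5 in WT liver. Nucleotide excision repair, which removes bulky lesions at any time in the cell cycle, had medians of -0.06 over 15 genes in KO and -0.12 over 14 in WT liver, with none called. The 22 homologous recombination genes on the wider list, which holds none of the members, had medians of 0.02 over 6 genes in KO liver (3 above 0 and 3 below) and 0.02 over 11 in WT liver (6 above 0 and 5 below). Base excision and strand break repair had 0.08 over 10 genes in KO and 0.11 over 15 in WT liver, and Fanconi anaemia and crosslink repair -0.43 over 2 in KO and -0.23 over 7 in WT liver. End joining had 0.33 over 3 genes in KO and 0.27 over 4 in WT liver. Chromatin and ubiquitin factors at breaks had -0.10 over 16 in KO and -0.24 over 17 in WT liver.

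In KO over WT, the wider ratios of this list included nucleotide excision repair, fork and chromatin genes. Xpc, a damage sensor and Wip1 substrate, had log2 ratios of 0.79 at 36 h and 0.31 at 24 h. Fen1 had -0.86 at 36 h and 0.00 at 24 h, and Rfc4 -0.81 and -0.13. Rad23b had -0.72 and -0.64, and Rfc3, another clamp loader subunit, -0.65 and -0.67, so that both were lower in KO liver by a like amount at both times. Since KO RNA carried Cy5 on both arrays, dye and genotype cannot be told apart in such genes. Rnf168, the ubiquitin ligase that recruits 53BP1, had 0.23 at 36 h and -0.81 at 24 h, and Mapk14, the p38 kinase that Wip1 inactivates, had 0.66 and -0.38. Mdm2, the ligase that degrades p53, had 0.23 at 36 h and 0.32 at 24 h.

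**Figure D5:**
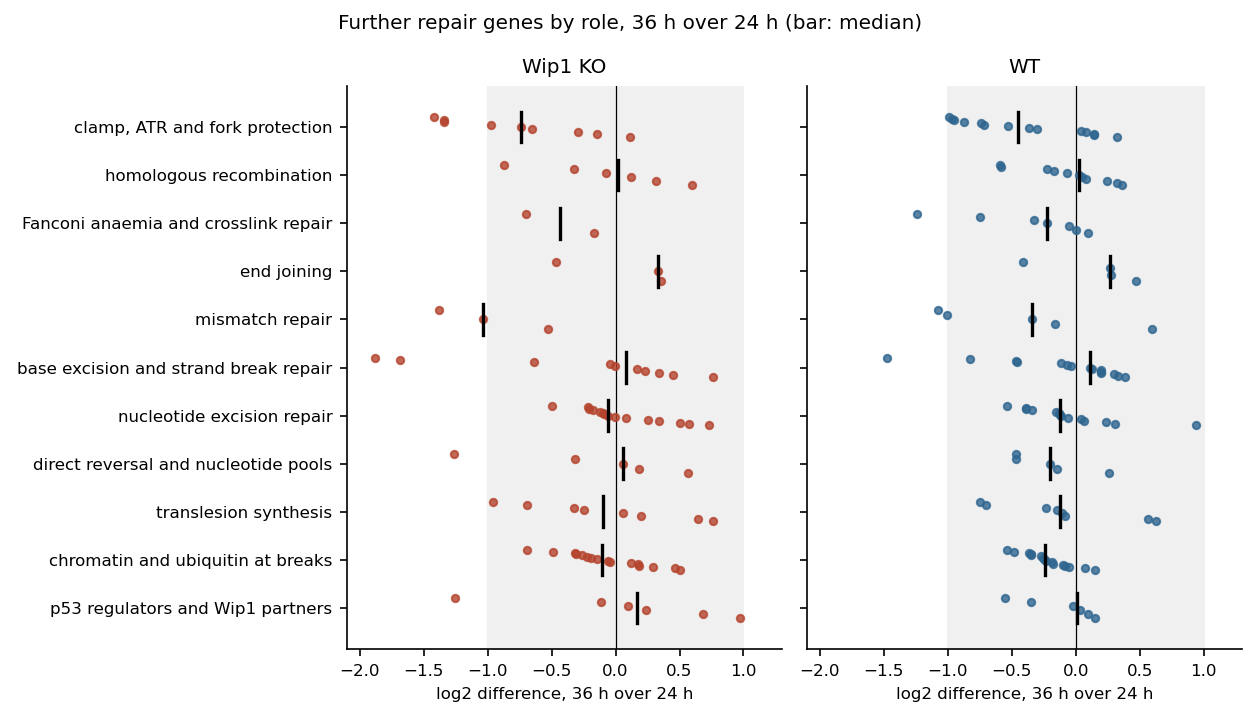
Log2 difference of 36 h over 24 h for the measured genes of the wider repair list in Wip1 KO liver (left) and WT liver (right), 1 point per gene and a bar at each group's median. The grey band spans less than 2-fold, and Lig1 (-1.88 in KO, -1.47 in WT liver) is the leftmost point in both.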

How the data were processed

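Wip1 KO RNA (Cy5) and WT RNA (Cy3) shared 1 array per time, so the number of arrays limits precision. Per the file headers, the scanner values are raw foreground and local background intensity per spot, quantified with LuxScan. The authors also deposited a linear ratio of KO over WT per feature (medians 0.999 at 24 h and 1.00 at 36 h), whose normalisation is not given in the sources used here. The deposited ratios carry no probe names and were matched to probes by descending probe ID after 4 leading rows. That order was checked, and the direction taken, by correlation with the log ratios computed here (0.974 at 36 h and 0.971 at 24 h). Shifted by 1 row, the correlation was 0.043 at 36 h and 0.026 at 24 h. Since the correlation served to check the match, it is not separate evidence of agreement. The deposited ratios served as an alternative. The genome build of the probes is not given in the sources used here.

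Median foreground was corrected with normexp (offset 50). Log ratios were normalised by loess (span 0.3, control spots at weight 0), and average brightness was made equal between arrays by Aquantile, in limma 3.58.1 under R 4.3.3. Simulated data with known changes were used to check the log ratios within each array. They did not check the step between arrays, on which the values of 36 h over 24 h rest. Python 3.11.15, numpy 2.4.6, pandas 2.3.3 and matplotlib 3.10.9 served for counts and figures. Signals are normalised channel values on the linear scale, and the brightest probe stood for a gene. Of 19518 distinct probe names, 14294 matched a RefSeq symbol, 3873 a single synonym, 90 several genes and 1241 none, and 20 were dates. Of the members, 27 had 1 probe and 5 several, and 1 (H2afx, now H2ax) matched by synonym. A gene was called at 2-fold or more.

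Named genes are all members and, of the wider list, Ppm1d, genes at least 2-fold apart and examples of the widest ratios per role. Genes given by a bound, Mdm2 and Mapk14 were chosen after their values were seen. The members, lists and alternatives were chosen with earlier results of these data known. The alternatives were other background corrections, filters, normalisations, probe rules and call thresholds, and the deposited ratios. Some genes of the wider list enter its counts and are not reported here by name.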

Additional observations from a re-analysis of the deposited data

Results flagged for a closer look

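For 10 members above background in all 4 channels, the log2 ratio of Wip1 KO over WT lay on opposite sides of 0 at 36 h and at 24 h. With 1 array per time this difference was not tested, and 46.9% of all genes measured in 4 channels also changed sides. The ratio at 36 h minus that at 24 h was 0.852 for Atm, 0.361 for Xrcc5 and 0.112 for Xrcc6, which were above 0 at 36 h. It was -0.683 for H2afx, -0.576 for Trp53bp1, -0.396 for Mre11a, -0.385 for Brca2, -0.232 for Rad50, -0.185 for Mgmt and -0.171 for Nbn, which were below 0 at 36 h. Those of Xrcc6, Nbn and Mgmt lie within 1 SD of repeated control spots for such a difference, taken over both arrays (0.192). Under median centring 7 of 15 members changed sides, and Mre11a, Rad50, Nbn, Trp53bp1 and Mgmt no longer did.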

How the results depend on the processing

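Members' values were recomputed 828 times over the alternatives. Of these, 11 moved by more than the spread between probes, 29 changed sign, and none of the 109 values of members at least 1.5-fold apart did so. The sizes of the falls between times depended on the background correction. In WT liver Chek1 had -2.12 with plain background subtraction and -2.17 with no background correction, Topbp1 -1.63 and -1.47, and Rad54l -1.81 and -1.77. Brca2 in KO liver had -1.56 with plain background subtraction. In KO over WT at 36 h the number of members called was 2 with plain background subtraction (Atm and Trp53), 1 with the deposited ratios (Atm) and 3 at 1.5-fold, in place of 0. In KO over WT at 24 h no alternative called a member, and the median was -0.11 under median centring, which also shifted the median of all genes to -0.11. In 36 h over 24 h in KO liver the number called was 5 with no filter on dim spots or with dim members at their bounds, 1 with channel medians (Brca2) and 0 with the stricter filter of 5 background SDs, in place of 2, and the median was -0.44 with bounds. In WT liver it was 4 with plain subtraction, 6 at 1.5-fold, 1 with mean foreground or with spots of quality flag 100 (Chek1), and 0 with the stricter filter or with members measured in all 4 channels, in place of 2, and the median was -0.22 with no filter and with bounds. The stricter filter left 7 members in KO and 11 in WT liver. Members at their bounds enter through their bright channel only, which fixes the direction of their values. The quality flag and the members measured in all 4 channels were chosen after seeing the data. The cause of the other moves was not tested. Over all genes, median centring gave 83 higher and 88 lower calls at 24 h, in place of 121 and 60. For 36 h over 24 h, no background correction gave 350 higher and 301 lower in KO liver, in place of 179 and 256, and 249 and 172 in WT liver, in place of 118 and 133, and channel medians gave 244 and 210 in KO liver. No paired analysis was possible because each time had 1 array, and no replicate could be left out. Dim signal limits the list, since 17 of 32 members were below background in at least 1 channel.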
